A study of Drosophila melanogaster with 8 samples.

Results

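The digestive proteases, amylases and maltases of Drosophila melanogaster were followed here in RNA of female heads. A list of 42 genes was drawn up with earlier results of these arrays in view, so the genes were chosen by the very levels and group differences given below, and these are a description without a test. Of the 42 genes, 35 had a probe set that the array annotation assigns to 1 symbol, each of them exactly 1 probe set, among 11982 genes so measured in all. Amy-p and Amy-d, the paired genes of alpha-amylase, share 1 probe set, which is given separately. Jon99Cii, Jon99Ciii, Jon99Fii, gammaTry and deltaTry had no probe set in the annotation and were not analysed here.

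The study asked how transcript levels in the head differ between females in reproductive diapause, in which adults stop maturing eggs, and females that do not. All females were of the strain Canton S, were collected no later than 8 h after eclosion and were then held at 12.5 °C under 14 h of light and 10 h of dark. After 12 days their ovaries were dissected and scored, and this scoring placed the flies in the diapause or the non-diapause group, so both groups shared strain, age, temperature and photoperiod. Total RNA of the heads, 6 µg per array, was measured on 4 arrays per group. Separate cultures are not stated for the arrays, whose spread may thus be technical, nor is the number of heads behind each array.

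Enzymes that break down food are made in the fly mainly by the enterocytes of the midgut, the absorptive part of the intestine, and are released into the lumen. Trypsin-like proteases cut proteins after basic residues, and the Jonah genes encode a large family of chymotrypsin-like serine proteases. Carboxypeptidases then trim the peptides from the end, amylase cuts starch to short sugars, and maltases split these to glucose. The midgut lies in thorax and abdomen and not in the head.

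Levels are log2 values normalized by GCRMA, with a floor of 2.16 and a highest value of 15.7, so 1 unit is a 2-fold step and a level under 4 is called low here. The markers of eye and brain fitted the head label on each array. All 8 measured genes of that list reached 4, and their mean was 11.40 to 11.87 on the diapause arrays and 11.31 to 11.71 on the non-diapause arrays. Non-diapause 3 stood apart from the other arrays. Its median correlation with the others over all probe sets, the listed genes included, was 0.9808, against 0.9925 to 0.9956 for the other 7 arrays. Differences are given with it (8 arrays) and without it (7 arrays). This choice was made along with the list and with these levels in view, and not from the correlation.

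Of the 35 genes measured, 32 reached a level of 3 on some array. The Jonah genes Jon44E, Jon66Ci and Jon66Cii were under 3 on all 8 arrays. The mean of the 32 genes was 9.06, 8.69, 10.07 and 9.82 on diapause 1 to 4, and 8.93, 9.50, 2.77 and 7.45 on non-diapause 1 to 4. Non-diapause 3 was thus nearly without these transcripts, and non-diapause 4 was the next lowest. Of the 32 genes, 30 were low on non-diapause 3, 13 on non-diapause 4, 9 on non-diapause 1, 7 on diapause 2, 2 each on diapause 1 and 4, 1 on non-diapause 2 and 0 on diapause 3.

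**Figure D1:**
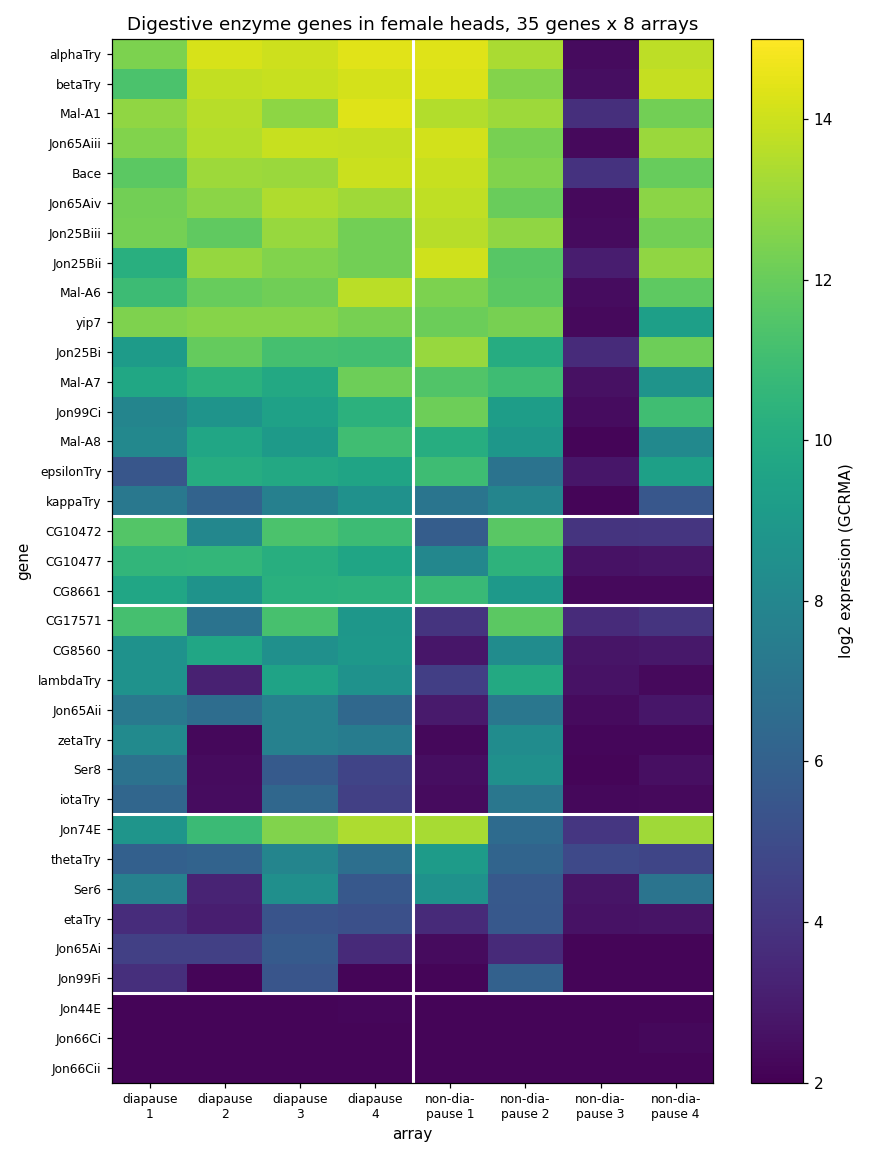
Log2 expression (colour, GCRMA) of the 35 measured digestive enzyme genes in rows on the 8 arrays in columns, with white lines between groups of arrays and between sets of genes that were low on the same arrays. The column of non-diapause 3 is dark for 33 of the 35 genes, and a lower block of genes is dark on non-diapause 1 and 4 as well.

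The genes fell into sets by the arrays on which they were low. In the first set, 16 genes were low on non-diapause 3 and on no other array, a pattern shown by 0.709% of the 18769 probe sets on the array. It spanned trypsins (alphaTry, betaTry, epsilonTry and kappaTry), Jonah proteases (Jon25Bi, Jon25Bii, Jon25Biii, Jon65Aiii, Jon65Aiv and Jon99Ci), the related serine protease yip7, the aspartic protease Bace and all 4 maltases (Mal-A1, Mal-A6, Mal-A7 and Mal-A8). Across the 16 genes, non-diapause 3 lay 4.99 to 11.64 below the median of the other arrays on the log2 scale (median 9.43). Of all probe sets, 52.2% were under 4 on every array and could not show this pattern. The share and the size use the values by which the list was made and add no support to it.

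The trypsin gene alphaTry stood at 12.45, 14.21, 14.01 and 14.41 on diapause 1 to 4 and at 14.38, 13.34, 2.36 and 13.68 on non-diapause 1 to 4. Among all arrays but non-diapause 3 the groups overlapped throughout, and diapause 1 was the lowest. The difference, diapause minus non-diapause, was 2.83 (SE 2.83) with 8 arrays and -0.03 (SE 0.57) with 7, so its size came from the 1 array. Its neighbour betaTry was 11.34, 13.83, 13.89 and 14.18 on the diapause arrays and 14.26, 12.57, 2.50 and 13.84 on the non-diapause arrays. Both trypsins were therefore lowest on the same 3 arrays, non-diapause 3, diapause 1 and non-diapause 2, and the difference of betaTry was 2.52 (SE 2.79) and -0.25 (SE 0.86). Another trypsin of the same gene cluster, epsilonTry, had levels of 5.48, 10.05, 9.83 and 9.57 in diapause and 10.98, 6.96, 2.81 and 9.37 in non-diapause. Here too diapause 1 and non-diapause 2 were the lowest arrays after non-diapause 3, and its differences were 1.20 and -0.37. The values of kappaTry were 7.18, 6.15, 7.66 and 8.58 in diapause and 7.06, 7.90, 2.18 and 5.53 in non-diapause, with differences of 1.72 and 0.56.

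Among the Jonah genes of this set, Jon65Aiii was 12.53, 13.49, 13.91 and 13.86 on the diapause arrays and 14.09, 12.34, 2.32 and 13.05 on the non-diapause arrays. Without non-diapause 3 its groups overlapped, and the difference went from 3.0 to 0.29 (SE 0.55). Its neighbour Jon65Aiv ran 12.23, 12.74, 13.47 and 13.17 in diapause and 13.78, 12.01, 2.32 and 12.72 in non-diapause, and ranked the arrays in the same order. The differences of Jon65Aiv were 2.69 and 0.07. Jon25Biii had 12.29, 11.85, 12.99 and 12.23 in diapause and 13.61, 12.82, 2.40 and 12.21 in non-diapause, with differences of 2.08 and -0.54. Non-diapause 1 was its highest array, and the groups overlapped.

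The 3 genes that were lowest in diapause relative to the other non-diapause arrays were also Jonah proteases of this set. Jon99Ci was 7.93, 8.73, 9.45 and 10.36 in diapause and 12.14, 9.26, 2.42 and 11.03 in non-diapause. Only diapause 3 and 4 were above its value on non-diapause 2, and its difference turned from 0.40 with 8 arrays to -1.70 (SE 0.90) with 7. Jon25Bi was 9.12, 11.92, 11.17 and 11.08 in diapause and 13.00, 10.04, 3.60 and 12.13 in non-diapause, with differences of 1.13 and -0.90 (SE 0.99). Jon25Bii gave 10.20, 12.95, 12.53 and 12.22 in diapause and 14.06, 11.60, 3.03 and 12.82 in non-diapause, with differences of 1.60 and -0.85. In both Jon25B genes non-diapause 1 was the highest array, and diapause 1 and non-diapause 2 were the next lowest after non-diapause 3, as in epsilonTry.

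Bace, an aspartic protease related to the mammalian beta-secretase, was 11.72, 13.11, 13.03 and 13.95 in diapause and 13.92, 12.53, 3.90 and 11.96 in non-diapause. Apart from non-diapause 3 the groups overlapped, and the difference fell from 2.37 to 0.15. The serine protease gene yip7 was 12.47, 12.65, 12.63 and 12.33 in diapause (SD 0.15, n = 4) and 12.06, 12.32, 2.33 and 9.32 in non-diapause. All 4 diapause arrays were above all 4 non-diapause arrays, but diapause 4 and non-diapause 2 were nearly equal. The difference of yip7 was 3.51 (SE 2.27), and 1.29 (SE 0.78) with 7 arrays.

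The 4 maltases, which release glucose from the short sugars that amylase leaves, moved together. Mal-A1 was 12.85, 13.60, 12.81 and 14.38 in diapause and 13.48, 13.10, 3.75 and 12.25 in non-diapause. Mal-A6 was 10.91, 12.00, 12.17 and 13.63 in diapause and 12.45, 11.71, 2.44 and 11.80 in non-diapause. In both the highest array was diapause 4, and the groups overlapped on the arrays other than non-diapause 3. Mal-A7 was 9.75, 10.32, 9.86 and 12.15 in diapause and 11.47, 10.94, 2.57 and 8.71 in non-diapause. Mal-A8 was 8.08, 9.71, 9.08 and 11.0 in diapause and 10.09, 8.89, 2.16 and 8.17 in non-diapause. Diapause 4 was again highest, and their differences of 2.76, 2.58, 2.10 and 2.14, in the order named, became 0.46, 0.19, 0.15 and 0.42 with 7 arrays. Pearson's r between the 4 maltases had a median of 0.98 over 8 arrays and of 0.89 (0.71 to 0.93) over 7, for 6 pairs that share the same arrays.

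The probe set shared by Amy-p and Amy-d behaved differently from the rest. It was 12.49, 14.09, 13.89 and 14.20 in diapause and 14.05, 12.66, 11.07 and 13.97 in non-diapause. It was lowest on non-diapause 3, but well above the floor there, at 11.07 against a median of 13.97 on the other arrays. As in betaTry, diapause 1 and non-diapause 2 were the next lowest. Its difference was 0.73 (SE 0.78), and 0.11 (SE 0.59) with 7 arrays.

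The second set held 7 genes that were low not only on non-diapause 3 and 4 but also on non-diapause 1, on diapause 2, or on both, and on no further array. On non-diapause 2 all 7 were near or above their diapause levels. The median of the set was 8.23, 3.20, 7.73 and 7.45 on diapause 1 to 4, and 2.80, 8.33, 2.40 and 2.55 on non-diapause 1 to 4. On non-diapause 1 the median of the first set was 13.24, the highest of all arrays, while that of the second set was close to the floor. The first set thus had 1 low array, and the second had low non-diapause arrays 1, 3 and 4 for most of its genes and a low diapause 2 for 4 of them.

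CG8560, a metallocarboxypeptidase gene, had the largest difference of all genes listed. It was 8.61, 9.70, 8.54 and 8.94 in diapause (SD 0.53, n = 4) and 2.80, 8.33, 2.76 and 2.82 in non-diapause. The 4 diapause arrays lay above the 4 non-diapause arrays, with non-diapause 2 only just beneath the lowest of them. Its difference was 4.77 (SE 1.37, 95% interval 1.45 to 8.09), a 27.2-fold difference of the group means, and 4.29 (SE 1.52, 95% interval 0.45 to 8.14) with 7 arrays. Because 3 non-diapause arrays were near the floor, this fold is set partly by the floor of the normalization.

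Jon65Aii, a Jonah protease, was 7.25, 6.65, 7.73 and 6.41 in diapause and 2.94, 7.13, 2.40 and 2.81 in non-diapause. Here non-diapause 2 fell inside the diapause range, and the difference was 3.19 (SE 1.12), and 2.71 (SE 1.20) with 7 arrays. CG17571, a serine protease gene, was 11.18, 6.95, 11.23 and 8.90 in diapause and 3.94, 11.71, 3.62 and 3.94 in non-diapause, so that non-diapause 2 was its highest array. Its differences were 3.76 (SE 2.16) and 3.03 (SE 2.41). The probe set of CG17571 is of a type that can match more than 1 transcript.

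The trypsin genes zetaTry, iotaTry and lambdaTry and the serine protease gene Ser8 were low on diapause 2 too. The levels of zetaTry were 8.23, 2.30, 7.72 and 7.45 in diapause and 2.29, 8.30, 2.21 and 2.22 in non-diapause. For Ser8 they were 6.92, 2.36, 5.66 and 4.66 in diapause and 2.47, 8.53, 2.19 and 2.55 in non-diapause. Both genes were high on the same 4 arrays, diapause 1, 3 and 4 and non-diapause 2, and highest on non-diapause 2. In iotaTry the values were 6.31, 2.43, 6.33 and 4.48 against 2.38, 7.17, 2.27 and 2.33, and in lambdaTry 8.64, 3.20, 9.56 and 8.64 against 4.39, 9.90, 2.62 and 2.33. The groups overlapped in these 4 genes, and their differences with 8 arrays were 2.67, 0.97, 1.35 and 2.70 in the order zetaTry, Ser8, iotaTry and lambdaTry. With 7 arrays these were 2.15, 0.39, 0.93 and 1.97.

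Between the first 2 sets lay 3 genes that were low on non-diapause 3 and 4 only. The serine protease gene CG10472 was 11.52, 8.03, 11.31 and 10.93 in diapause and 5.81, 11.65, 3.95 and 3.99 in non-diapause. CG10477, a serine protease gene next to yip7 on the chromosome, was 10.57, 10.60, 10.15 and 9.63 in diapause and 8.04, 10.40, 2.64 and 2.75 in non-diapause. Only non-diapause 2 reached the diapause range in these 2 genes, and CG10472 was also lowered on diapause 2 and non-diapause 1. Their differences were 4.10 (SE 1.94) and 4.28 (SE 1.91), and 3.30 (SE 2.09) and 3.17 (SE 1.85) with 7 arrays. CG8661 was 9.71, 8.66, 10.24 and 10.33 in diapause and 10.83, 9.0, 2.34 and 2.32 in non-diapause. Its highest array was non-diapause 1, so the groups overlapped, and its differences were 3.61 (SE 2.19) and 2.35 (SE 2.14).

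**Figure D2:**
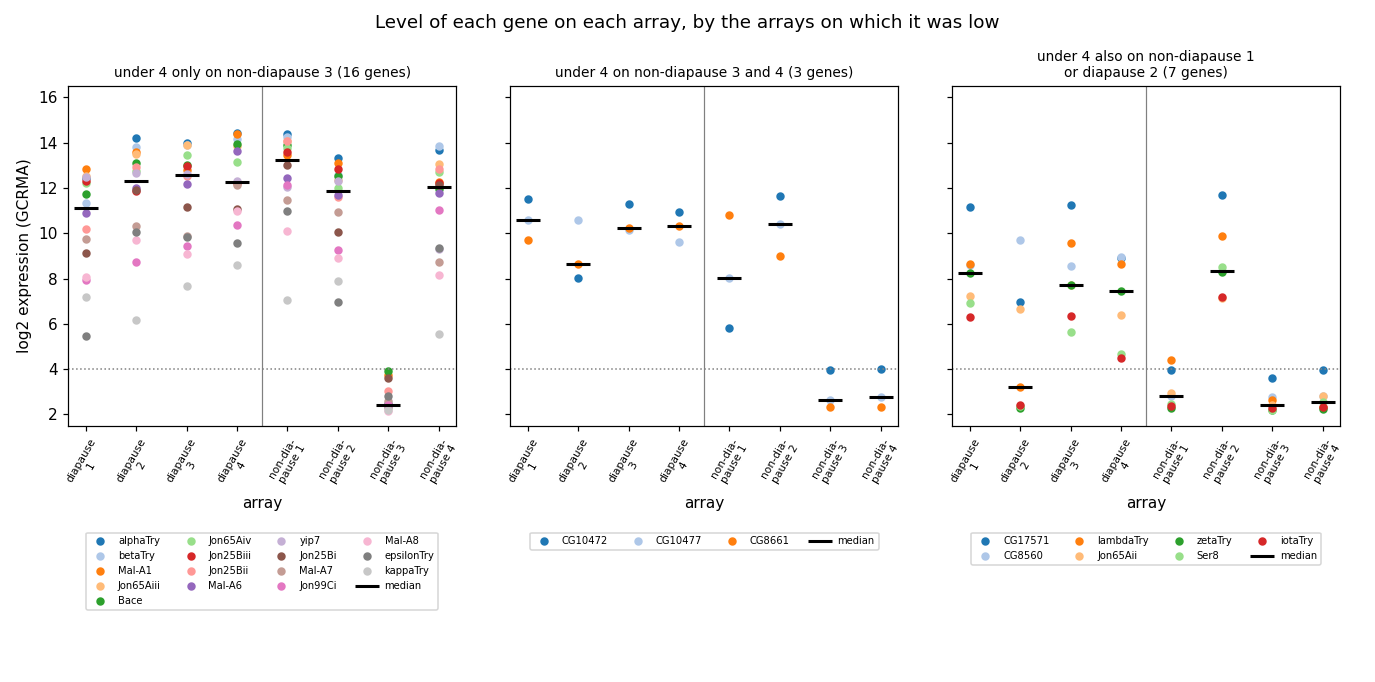
Log2 expression of each gene (points) and the median of the set (bars) on each of the 8 arrays, in 3 panels by the arrays on which the genes were under 4 (dotted line). The 16 genes on the left drop only on non-diapause 3, the 3 in the middle on non-diapause 3 and 4, and the 7 on the right also on non-diapause 1 or diapause 2.

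The other 6 varying genes had low arrays that matched none of these sets exactly. Of these, etaTry, Jon99Fi and Jon65Ai were low on non-diapause 1, 3 and 4, as most of the second set, but on further arrays too. Over 7 arrays, Pearson's r was 0.89 for etaTry and lambdaTry, 0.89 for Jon99Fi and iotaTry, and 0.88 for Jon65Ai and Jon65Aii. With kappaTry of the first set etaTry had 0.90, and Jon74E had 0.85 with Jon65Aiii of that set. The Jonah protease Jon74E was 8.77, 10.87, 12.55 and 13.41 in diapause and 13.30, 6.54, 4.07 and 13.13 in non-diapause, falling on non-diapause 3 and 2 and on diapause 1 without being called low anywhere. thetaTry ran 5.98, 6.15, 7.94 and 6.74 in diapause and 9.15, 6.18, 4.85 and 4.71 in non-diapause. The groups overlapped in both genes, with differences of 2.14 and 0.48, or 0.41 (SE 2.15) and 0.02 with 7 arrays. The serine protease gene Ser6 was 7.73, 3.27, 8.48 and 5.60 against 8.64, 5.64, 2.72 and 6.98, and its difference turned from 0.28 to -0.81 without non-diapause 3. The remaining 3 were dim. The trypsin etaTry was 3.66, 3.11, 5.36 and 5.19 against 3.53, 5.57, 2.65 and 2.71, and Jon99Fi was 3.75, 2.16, 5.42 and 2.16 against 2.16, 6.04, 2.16 and 2.16. Both were highest on non-diapause 2 and on diapause 3, and their differences were 0.72 and 0.24, or 0.40 and -0.08 with 7 arrays. Jon65Ai was 4.44, 4.45, 5.68 and 3.55 in diapause and 2.39, 3.53, 2.16 and 2.19 in non-diapause. Its groups did not overlap, though diapause 4 and non-diapause 2 were nearly equal, and its difference was 1.96 (SE 0.53), and 1.82 (SE 0.60) with 7 arrays.

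Over the 35 genes, the median difference was 2.14 with 8 arrays, 33 were higher and 2, both at the floor, lower in diapause, and 26 were higher by at least 1, as 1.22% of all probe sets were. With 7 arrays the median was 0.29, 24 were higher and 11 lower, 10 were higher by at least 1 (0.586% of all probe sets) and 1, Jon99Ci, was lower by at least 1 (0.0959%). The median over all 18769 probe sets was 0.0 in both cases. Of these, 6486 were higher in diapause with 8 arrays and 12001 with 7, and the 24 of 35 genes lay near the latter share. Within 0.01 of the floor on all arrays were 6410 of the probe sets, for which the sign carries no meaning. Among genes with a mean level of at least 6, all 25 listed ones were higher in diapause with 8 arrays, against 51.34% of 7593 probe sets. With 7 arrays this was so for 17 of the 25, against 54.3%. The change between the fits differed by family. The median of the 13 Jonah genes went from 1.60 to -0.01, that of the 9 trypsins from 1.72 to 0.40, that of the 4 maltases from 2.36 to 0.31, and that of the 6 other serine proteases from 3.64 to 2.16. The 13 Jonah genes include Jon44E, Jon66Ci and Jon66Cii, which were near the floor on all arrays, and the -0.01 is the value of Jon66Cii. Jon44E, with a difference of 0.02 in both fits, is counted among the genes higher. Of the 32 varying genes, 9 changed sign without non-diapause 3, namely alphaTry, betaTry, epsilonTry, Jon25Bi, Jon25Bii, Jon25Biii, Jon99Ci, Ser6 and Jon99Fi.

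**Figure D3:**
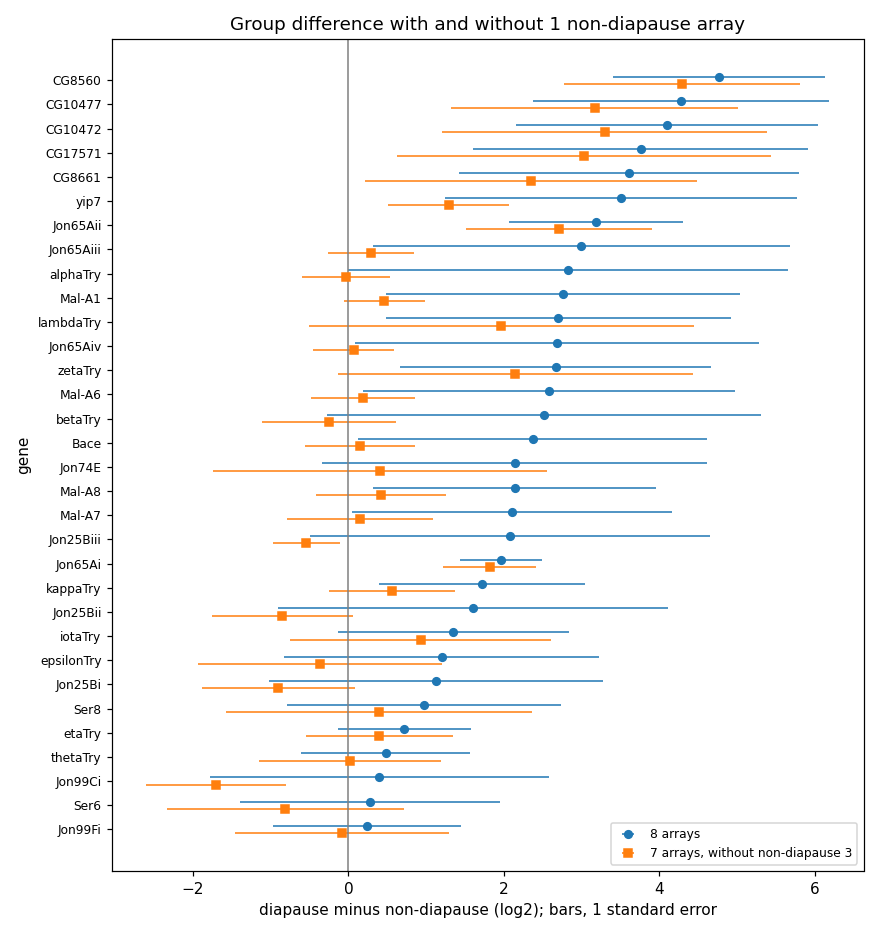
Difference in mean log2 level, diapause minus non-diapause, of the 32 genes that reached 3 on some array, with all 8 arrays (circles) and with 7 arrays without non-diapause 3 (squares); bars are 1 standard error. Most genes low on that array alone move to near 0 without it, while 7 genes, among them CG8560, CG10472, CG10477 and CG17571, stay above 2.

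In the limma fit over all probe sets, 0 of the 35 genes had an adjusted p (Benjamini-Hochberg) under 0.05, as did 0.0% of all probe sets, with 8 arrays and with 7 (0.0%). At an unadjusted p under 0.01, the threshold used in the study, 1 gene was higher in diapause with 8 arrays, Jon65Ai, against 0.16% of probe sets, and 0 genes with 7 arrays, against 0.218%. At an unadjusted p under 0.05, 3 genes were higher with 8 arrays (0.906% of probe sets) and 2 with 7 (1.05%), and 0 were lower in either fit (2.09% and 2.1%). Diapause arrays lay wholly above non-diapause arrays for 3 genes, CG8560, yip7 and Jon65Ai, and for 0.554% of probe sets. The list was made with these comparisons known, so nothing is read from the counts. They depended on non-diapause 2 as well, the array on which the second set was high. Without it, 6 genes had an unadjusted p under 0.01 (0.25% of probe sets), namely CG8560, Jon65Aii, CG10472, CG17571, Jon65Ai and CG10477, and 1, CG8560, had an adjusted p under 0.05 (0.0107%), with a difference of 6.15 (SE 0.31). Non-diapause 2 is the only non-diapause array on which CG8560 was high (8.33). The non-diapause arrays that remain were near the floor (2.80, 2.76 and 2.82), where spread is compressed, so this small SE and p carry no weight of their own.

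The drop on non-diapause 3 was confined to few of the probe sets on the array. On it, 154 of 18769 probe sets (0.8205%) were at least 4 below their median on the other arrays, and 26 of these were genes of the list, that is 16.88% of the 154 and 74.29% of the 35. On non-diapause 4 this held for 46 probe sets, 7 of them from the list, on non-diapause 1 for 16 with 5 from the list, and on diapause 2 for 15 with 2 from the list. On the remaining 4 arrays it held for at most 1 probe set. The labels name no batch, and what set these arrays apart was not tested.

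Correlation between the genes is given as a description, over points that share the same RNA, array and normalization. The sets were formed by the arrays on which the genes were low, so r within and between them follows in part from how they were made. Over the 496 pairs of the 32 genes, the median of Pearson's r was 0.59 with 8 arrays and 0.28 with 7. Within the first set it was 0.95 and 0.56 over 120 pairs, so part of it came from the 1 shared low array. Within the second set it was 0.91 and 0.90 over 21 pairs. Between the sets it was 0.38 with 8 arrays and -0.30 with 7, when 77 of 112 pairs were below 0. The trypsin alphaTry was most like betaTry (r = 0.96 over 7 arrays) and epsilonTry (0.94), and least like Ser8 (-0.64) and iotaTry (-0.57).

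**Figure D4:**
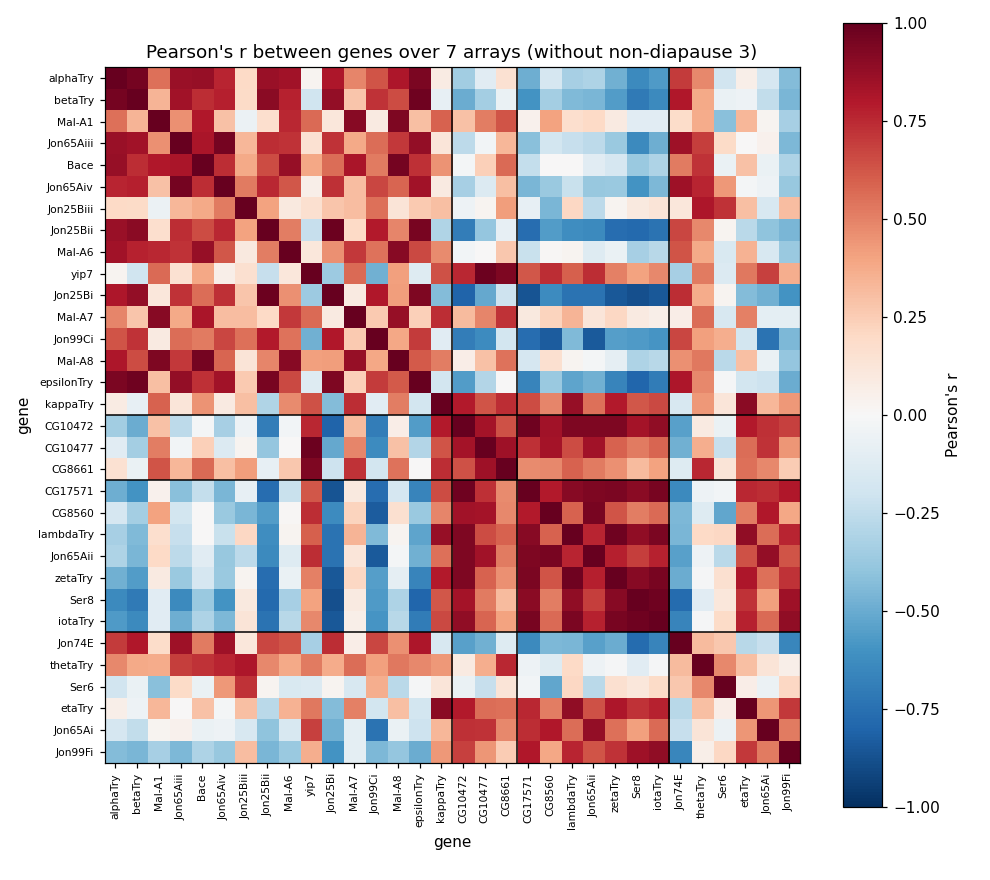
Pearson's r (colour) between each pair of the 32 varying genes over the 7 arrays without non-diapause 3, with genes in the order of the heat map and black lines between the sets of genes low on the same arrays. The block of 7 genes low on more arrays is red throughout (0.51 to 0.97), and its field against the first 16 genes is mostly blue.

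The order of the genes on the chromosomes was set beside these correlations. By a reference annotation (Release 6), the listed trypsins stand in 1 run on arm 2R in the order lambdaTry, kappaTry, zetaTry, etaTry, thetaTry, alphaTry, epsilonTry, betaTry, gammaTry, deltaTry and iotaTry. Within it lambdaTry and kappaTry had r = 0.87 and kappaTry and zetaTry 0.79 over 7 arrays, and alphaTry and epsilonTry 0.94 and epsilonTry and betaTry 0.97. Between these runs, etaTry and thetaTry gave 0.30, and iotaTry at the far end was most like Ser8 (0.97), with 380 genes between them. A run on arm 3L held CG10477, yip7, Jon65Aiv, Jon65Aiii, Jon65Aii and Jon65Ai. Here yip7 went with CG10477 (0.98), Jon65Aiv with Jon65Aiii (0.96) and Jon65Aii with Jon65Ai (0.88), while the bordering pairs yip7 and Jon65Aiv (0.06) and Jon65Aiii and Jon65Aii (-0.26) did not go together. On arm 2L, Jon25Bi and Jon25Bii gave 0.98 and Jon25Bii and Jon25Biii 0.40. In 18 measured pairs, the listed genes followed directly on each other along an arm with at most 5 genes between them. The median of these was 0.80 (-0.26 to 0.98). Listed genes further along the same run were not paired, so this median does not cover all close neighbours. Several of these neighbours are close copies of each other, so that a probe set may read more than 1 of them, which was not tested.

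Other genes of digestion and of the midgut were low on the same arrays. Of 128 measured genes in 8 lists of such genes, leaving out those above, 80 reached 4 on some array, 19 were low on non-diapause 3 alone (0.709% of all probe sets were) and 35 were at least 4 lower there (0.8205%). In limma 0 of the 128 had an adjusted p under 0.05 with 8 arrays or with 7. At an unadjusted p under 0.01 with 8 arrays, 1 was higher in diapause (0.16% of all probe sets) and 1 lower (0.607%), and at p under 0.05, 4 were higher (0.906%) and 6 lower (2.09%). With 7 arrays these were 1 (0.218%), 1 (0.48%), 3 (1.05%) and 4 (2.1%). The gene higher was nub, which encodes a POU transcription factor also made in enterocytes. The array has 3 probe sets for nub, and the values are of the 1 with the highest mean. Its levels were 5.59, 4.74, 5.99 and 6.22 in diapause and 3.60, 4.15, 3.12 and 3.86 in non-diapause. Its groups did not overlap, and its difference was 1.96 (SE 0.38, limma adjusted p = 0.9069) and 1.77 with 7 arrays. The gene lower was CG31445, an aminopeptidase gene, with a difference of -0.47 (SE 0.11, limma adjusted p = 1.0) and of -0.51 with 7 arrays, and it did not drop on non-diapause 3 (8.86).

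Among midgut genes that encode no digestive enzyme, 14 of 17 reached 4 on some array, and esg, a gene of intestinal stem cells, CG7714 and Peritrophin-15b did not. The mean of the 14 was 8.24 to 9.20 on the diapause arrays and 8.58, 8.88, 3.84 and 6.31 on non-diapause 1 to 4. Their median difference was 2.0 with 8 arrays and 1.0 with 7, with 13 higher in diapause each time. Of all 17, 15 were higher in either fit, against 6486 of 18769 probe sets with 8 arrays and 12001 with 7. The genes share the same low arrays, so nothing is read from these counts. Of the 17, 10 were at least 4 lower on non-diapause 3 than their median on the other arrays (0.8205% of all probe sets). On that array alone 7 were low (0.709%). Ssk, a gene of high mean in this list, was 10.87 on non-diapause 3 against a median of 12.18 on the other arrays, a smaller drop than in the genes named next. mex1, a gene of the midgut brush border, was 8.96, 8.33, 9.24 and 9.26 in diapause and 8.52, 9.20, 2.39 and 6.16 in non-diapause. Muc68D, a mucin gene, was 12.40, 13.32, 13.44 and 13.29 against 12.02, 11.47, 3.03 and 12.45. GATAe, which encodes a GATA factor of the gut, was 6.33, 5.24, 6.23 and 6.30 against 4.83, 6.96, 3.78 and 4.19, highest on non-diapause 2 and lowest on non-diapause 3 and 4. mex1 and GATAe were named after their values were seen. In bulk RNA, fewer cells of a type and less RNA per cell cannot be told apart, and the part of midgut RNA in the differences of the digestive enzymes was not tested.

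The enzyme families beyond the list were mixed on non-diapause 3. Of 26 further serine proteases that reached 4, 5 were low on non-diapause 3 alone (0.709% of all probe sets). At least 4 lower there than their median on the other arrays were 11 (0.8205%), while CG32523 (11.96 there) and CG9676 (12.85) were not lowered. Among carboxypeptidases, CG12374 was 11.81, 11.98, 12.58 and 13.39 against 14.60, 12.15, 2.59 and 13.51, and CG8539 was 10.49 on non-diapause 3, among its higher values. Of the 6 neutral lipases that reached 4, mag was 9.38, 8.19, 9.37 and 8.10 against 4.52, 9.72, 3.68 and 3.86, once more with non-diapause 2 as the highest array. Among glycosidases, Mal-A2, a maltase gene outside the list, was 9.27, 10.03, 9.42 and 10.94 against 9.25, 9.65, 2.54 and 7.19, while Mal-A5 was 11.36 and Mal-B2 12.18 on non-diapause 3, within their range on the other arrays. The lysosomal aspartic protease gene cathD was 12.86 to 13.19 on all 8 arrays.

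In lists of other organs, the mean of the genes that reached 4 did not drop on non-diapause 3. For 7 of 9 Malpighian tubule genes it was 8.96 there against 8.96 to 9.43 on the other arrays. It was 7.31 against 6.48 to 7.44 for 4 of 9 salivary gland genes. Among these is LysP (11.75 on non-diapause 3), which is also counted among the 128 digestive and midgut genes. For 6 of 7 peptide genes shared by gut and brain the mean was 10.89 against 9.98 to 10.78. The other genes of these lists were under 4 on all arrays. How far the remaining genes stand for their organ in head RNA was not tested. For 8 fat body genes the mean was 14.54 on non-diapause 3, but it moved with the group, at 14.06 to 14.20 on the diapause arrays and 14.39 to 14.76 on the non-diapause arrays. In limma 4 of the 10 fat body genes measured were lower in diapause at an unadjusted p under 0.01 with 8 arrays (0.607% of all probe sets). With 7 arrays 2 were (0.48%), and 0 had an adjusted p under 0.05 in either fit (0.0%). This list too was chosen with earlier results of these arrays known, so nothing is read from the counts. The part of fat body RNA in the differences of the digestive enzymes was not tested. Of 13 ovary genes only grk reached 4 (6.76 to 7.40), and of 7 genes of male tissue 0 did.

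**Figure D5:**
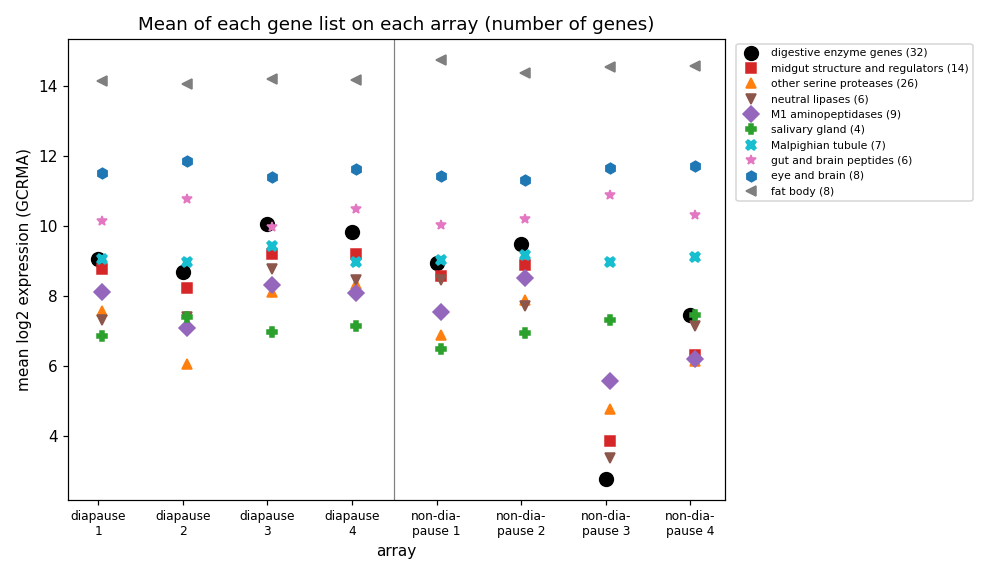
Mean log2 expression of the genes of each list that reached 4 on some array (number of genes in brackets; for the digestive enzyme genes, the 32 that reached 3) on each of the 8 arrays. Digestive enzymes, midgut genes, neutral lipases, further serine proteases and aminopeptidases drop on non-diapause 3 and partly on non-diapause 4, and the lists of eye and brain, fat body, Malpighian tubule, salivary gland and peptides do not.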

How the data were processed

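Per the labels, RNA of heads of Canton S females was hybridised in 1 colour, 4 arrays per group. The values the authors deposited are log2 expression levels made with GCRMA (version not given in the sources used here), which corrects background, normalizes by quantiles and summarises probes. No further normalization was applied. Values near the floor have no order, and differences near the top are compressed. The number of arrays limits the precision. Genes were named by the array annotation. Probe sets with several symbols (402) or none (4720) were left out of gene lists, and with several probe sets per gene the one with the highest mean was used. Groups were compared in R 4.3.3 with the lmFit and eBayes steps of limma 3.58.1 (2-sided), with Benjamini-Hochberg adjustment over 18769 probe sets after leaving out 183 controls. The step was tested on simulated data. P-values measure the spread between arrays, which may be technical. Genes, lists and the low level of 4 were chosen with earlier results of these data known. Levels were given by array for genes that had the highest mean, differed most, were low on arrays beyond non-diapause 3 or encode amylase or maltase, and others were added after their values were seen. From other lists, genes with the smallest p or highest mean were named, and mex1, GATAe, Mal-A2 and a few others were added after their values were seen. Alternatives were a replicate block, mean filters, a second quantile normalization, median centring, limma-trend, array weights, each array left out, all probe sets of a gene and low levels of 3 and 5.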

Additional observations from a re-analysis of the deposited data

Results flagged for a closer look

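Among 64 groups of 4 arrays, 1 for each of 32 genes in each condition, 20 had a lowest or highest array that lay far from the other 3 by Dixon's test, which by chance flags about 1 in 20 groups. The genes share their arrays and were chosen with these levels known, so the count is a description and is not read against that rate. On non-diapause 3 these were alphaTry (2.36), betaTry (2.50), Mal-A1 (3.75), Jon65Aiii (2.32), Jon65Aiv (2.32), Jon25Biii (2.40) and Mal-A6 (2.44), all far below the other 3 non-diapause arrays. On non-diapause 2, 8 genes were far above the other 3 non-diapause arrays, namely CG17571 (11.71), CG8560 (8.33), Jon65Aii (7.13), zetaTry (8.30), Ser8 (8.53), iotaTry (7.17), Jon65Ai (3.53) and Jon99Fi (6.04). Within the diapause group, CG10472 (8.03), lambdaTry (3.20) and zetaTry (2.30) were far below the other 3 diapause arrays on diapause 2, and betaTry (11.34) and epsilonTry (5.48) on diapause 1.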

How the results depend on the processing

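The median difference of the 35 genes was 2.14 and stayed above 0 under the alternatives run, from 1.49 with array weights to 2.52 with filters on the mean, and from 0.29 (without non-diapause 3) to 2.93 (without non-diapause 2) when 1 array was left out. The count of genes at an unadjusted p under 0.01, 1 with all arrays, was 2 with array median centring and with limma-trend, and 0 to 6 when 1 array was left out. The count at an adjusted p under 0.05 was 0 to 1, with the 1 reached without non-diapause 2. Of the 128 other digestive and midgut genes, 2 had an unadjusted p under 0.01, and this was 4 with median centring and with array weights, 1 with limma-trend, and 1 (without diapause 4) to 7 (without non-diapause 2) when 1 array was left out. The median correlation of 0.59 was 0.28 without non-diapause 3. Low levels of 3 and 5 gave 13 and 17 genes low on that array alone, in place of 16. Same-numbered arrays of the groups did not deviate together (r = -0.313, -0.618, -0.352 and 0.0578 over 7593 probe sets), so the numbers are not taken as pairs. With a replicate block the median was 2.14, the count of genes 0 and that of other digestive genes 1. With 4 arrays per group, of which 1 lacked most of these transcripts, small differences could not be resolved, and levels at the floor carry no order.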

Other observations

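Outside the 42 genes, the ones whose profile over the 8 arrays was most like the mean of the 16 genes low on non-diapause 3 alone, among 226 compared that had an SD of at least 1 over the arrays, included CG5107 (r = 0.997), CG13324 (0.989) and the serine protease gene Phae2 (0.986). CG5107 was 10.53, 12.14, 12.28 and 13.61 in diapause and 13.38, 11.89, 2.24 and 11.72 in non-diapause. Most like the 7 genes low on more arrays were CG9568 (0.993), Ag5r2 (0.984), CG10300 (0.972) and CG15534 (0.969). CG9568 was 9.35, 4.58, 8.87 and 7.77 in diapause and 3.10, 9.99, 3.05 and 3.33 in non-diapause. Also in this group were 2 alkaline phosphatase genes, Alp6 (0.965) and Alp5 (0.964). Alp6 was 7.20, 2.25, 7.32 and 5.93 in diapause and 2.29, 7.35, 2.24 and 2.24 in non-diapause, so that it too was high on diapause 1, 3 and 4 and on non-diapause 2. These genes were picked for their likeness, which is a description over arrays that also define it.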
